A study of Homo sapiens with 24 samples.

Results

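The 10 mRNAs described here are products of genes that NF-kB itself switches on: NFKBIA, TNFAIP3, BCL3, NFKB1, NFKB2, RELB, BIRC3 and the chemokine genes CXCL8, CXCL1 and CXCL2. They were chosen by name, as a list of feedback regulators and chemokines, out of 58676 gene rows, and all 10 were present in the count tables. 8 of the 10 passed the filter on low counts (at least 1 CPM, which is 1 read for every 1000000 reads assigned to genes, in at least 2 libraries), which left 13136 genes in the tests. CXCL1 and CXCL2 did not pass and are given as reads only.

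The libraries were made from HepG2, a human liver cancer line, and fall into 12 groups of 2. Cells received the AllStars negative control siRNA (siControl) or an siRNA to one of the RNA-binding proteins IGF2BP1, IGF2BP2 or IGF2BP3 (siIGF2BP1, siIGF2BP2, siIGF2BP3), were re-seeded 6 h later, and after another 48 h were exposed to 5 µg/ml actinomycin D, which blocks transcription, for 0, 3 or 6 h before collection. All groups therefore carried a transfected siRNA, and no cytokine or other NF-kB stimulus is named for any of them. The labels do not say whether the 2 libraries of a group came from separate transfections. The paper's figure legends call the replicates independent, but its methods do not name a repeat of the transfection. The p-values therefore measure only the spread between libraries, which may be technical, and each transfected plate was split over the 3 time points.

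NF-kB is a family of dimeric transcription factors held inactive in the cytoplasm by IkB proteins. When a receptor signal activates the IkB kinase, IkB is degraded, the dimers enter the nucleus, and among the first genes they switch on are their own inhibitors, which close the loop. Many mRNAs of this kind are short-lived, often through AU-rich elements in the 3′ UTR, so that their level can follow the rate of transcription closely. In hepatocytes and liver cancer cells the pathway is known for its part in survival and in inflammatory signalling, and IGF2BP proteins are known as regulators of mRNA stability, which is the question the knockdowns address.

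The letters GGAATTTCC, a form of the NF-kB binding site, were found on either strand of the 300-base RefSeq promoter window (250 bases before to 50 after the start site) in 5 of the 9 genes with such a window, against 0.461% of 35116 windows of all genes. They were in 5 of the 12 windows of these genes, and in no window of NFKB2, BCL3, TNFAIP3 or BIRC3. The matches are shown because the letters are rare among all windows, with the match in capitals and 10 bases on each side, 5′ to 3′ on the strand of the gene (GRCh38.p14). In NFKBIA the match lies on the opposite strand, so its capitals read as the reverse complement.
NFKBIA promoter, chr14:35404812-35404840, minus strand: tgactggcttGGAAATTCCccgagcctga
NFKB1 promoter, chr4:102501301-102501329, plus strand: gacgtcagtgGGAATTTCCagccaggaag
CXCL8 promoter, chr4:73740468-73740496, plus strand: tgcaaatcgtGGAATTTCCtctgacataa
CXCL1 promoter, chr4:73869305-73869333, plus strand: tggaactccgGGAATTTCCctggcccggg
CXCL2 promoter, chr4:74099254-74099282, minus strand: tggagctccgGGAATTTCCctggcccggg
These matches lie 48 to 91 bases from the annotated start site. A looser form of the site, GGG and CC with any 5 bases between them, which can overlap the first motif where a further G precedes it, was in all 9 genes but also in 58.7% of all windows, so it does not set these genes apart. No window was given for RELB.

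The 3′ UTRs differ more among the 10 mRNAs. ATTTA, the core of AU-rich elements, was counted with overlaps on the sense strand of the canonical transcript (GENCODE 44). CXCL2 held 10 copies (14.0 per kilobase), CXCL1 held 6 (7.77), CXCL8 held 9 (7.19), NFKB2 held 1 (6.76), NFKBIA held 3 (6.00), BIRC3 held 12 (5.22), NFKB1 held 3 (4.24) and TNFAIP3 held 5 (2.51), against a median of 1.51 per kilobase over 19393 UTRs. RELB and BCL3 held none, while 67.6% of all UTRs held at least 1. The stricter letters TTATTTATT, which contain ATTTA, were in TNFAIP3, BIRC3, CXCL8, CXCL1 and CXCL2 and in 8.46% of all UTRs. The 30-base stretches below (hg38, 3′ UTR exons, 5′ to 3′ on the transcript) show the contrast between the run of copies in the CXCL1 and CXCL2 mRNAs and the lone copies in a stretch of NFKBIA, TNFAIP3 or CXCL8, with each ATTTA in capitals.
NFKBIA 3′ UTR, chr14:35401910-35401939, minus strand: aaaagaagaaaaaATTTAaagggtgtactt
TNFAIP3 3′ UTR, chr6:137882297-137882326, plus strand: tgtaattcactttATTTAttttattacaaa
CXCL8 3′ UTR, chr4:73742663-73742692, plus strand: tatgtaaagtattATTTAtttgaatctaca
CXCL1 3′ UTR, chr4:73870673-73870702, plus strand: aagtcttctATTTATTTATTTAttcattag
CXCL2 3′ UTR, chr4:74097586-74097615, minus strand: cttctATTTATTTATTTATTTATTTAtttg

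The libraries held 31843248 to 74252042 reads assigned to genes and 50889 to 119088 reads of the ERCC spike-in RNAs. The targeted mRNAs checked the labels. Over the 3 times, IGF2BP1 fell to 17.7% of siControl in siIGF2BP1, IGF2BP2 to 23% in siIGF2BP2 and IGF2BP3 to 29% in siIGF2BP3, so every condition is a partial knockdown. At 0 h, 7 hepatocyte markers (ALB, AFP, APOA1, APOB, TTR, SERPINA1 and HNF4A) summed to 61400 to 67100 CPM, while PTPRC and CD68 of leukocytes summed to 0.0157 to 0.127 CPM, PECAM1 and VWF of endothelium to 0.84 to 2.16 CPM, and COL1A1 and COL1A2 of fibroblasts to 0.0507 to 0.22 CPM. In these bulk libraries, fewer cells making an mRNA and less of it per cell cannot be told apart.

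At 0 h in siControl, the mRNA of the inhibitor NFKBIA was by far the most abundant per length, at 71.7 ± 1.29 CPM per kilobase of transcript (SD, n = 2). NFKB1, which encodes the precursor of a DNA-binding subunit, followed at 18.2 ± 0.945, and TNFAIP3, a ubiquitin-editing enzyme that shuts the upstream signal off, at 14.6 ± 0.222. NFKB2, the precursor of the partner of RELB, stood at 8.56 ± 0.123 CPM per kilobase, BCL3, an atypical IkB that acts in the nucleus as a coactivator, at 6.53 ± 0.127, and RELB itself at 2.6 ± 0.442. The chemokine CXCL8 reached 1.25 ± 0.302 and BIRC3, an inhibitor of apoptosis and ubiquitin ligase, 0.398 ± 0.0177 CPM per kilobase. CXCL2 (0.166 ± 0.0976) and CXCL1 (0.0189 ± 0.00572) were lowest. No neighbours in this order overlapped between their libraries in siControl. In siIGF2BP1 and siIGF2BP2 the libraries of NFKB2 (8.08 ± 0.702 and 8.09 ± 0.268 CPM per kilobase) and BCL3 (8.49 ± 1.35 and 8.39 ± 1.04) did overlap.

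**Figure D1:**
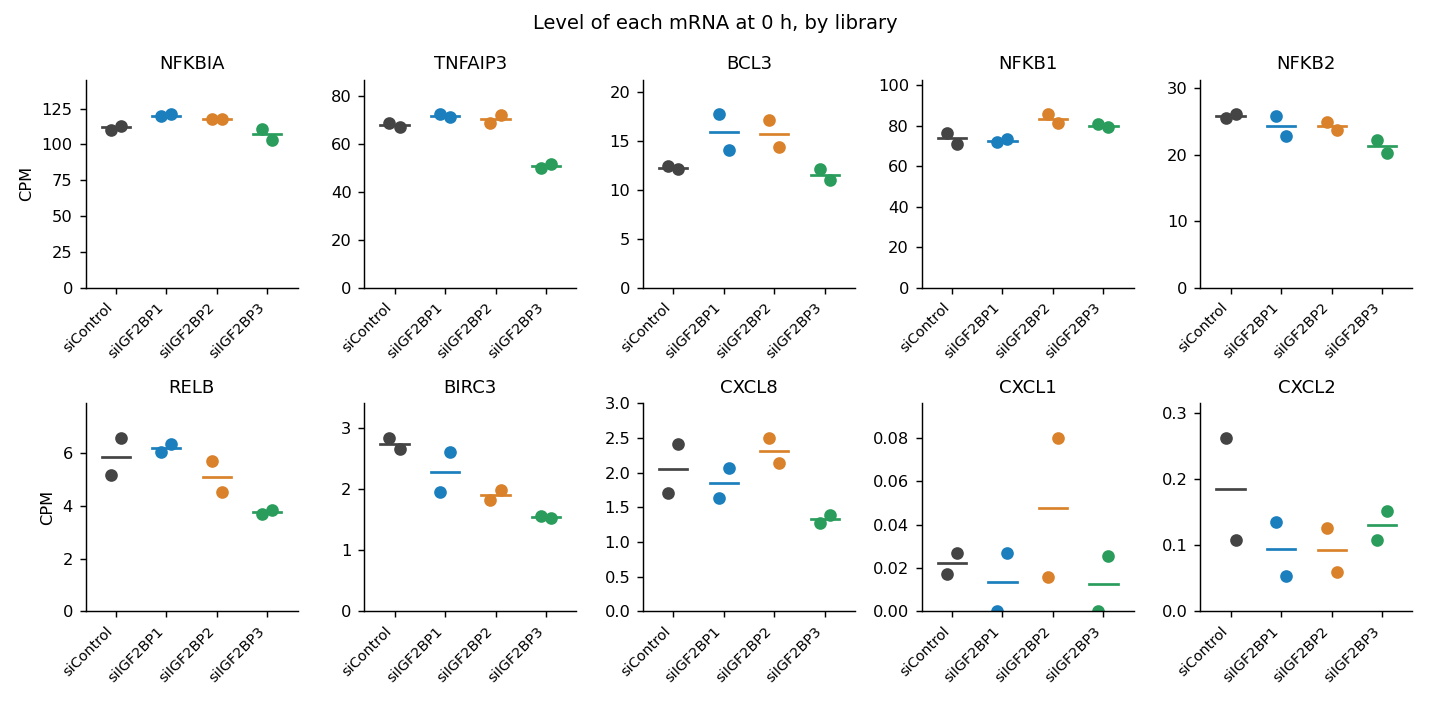
Level of each of the 10 mRNAs at 0 h in CPM (linear axes from 0), with 1 point per library and a line at the mean of 2 libraries for siControl, siIGF2BP1, siIGF2BP2 and siIGF2BP3. The 2 siIGF2BP3 points of TNFAIP3 (50 and 51.6 CPM) lie below all other libraries, while NFKBIA stays between 103 and 121 CPM.

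CXCL1 and CXCL2 were close to undetected. CXCL1 had 0 to 5 reads per group summed over 2 libraries, 3 of them in siControl at 0 h (0.0228 CPM, exact Poisson 95% interval 0.0047 to 0.0666). CXCL2 had 23 reads in siControl at 0 h (0.175 CPM, 0.111 to 0.262), then 1 read at 3 h (0.011, 0.000278 to 0.0611) and 3 reads at 6 h (0.0264, 0.00545 to 0.0772). In siIGF2BP1, siIGF2BP2 and siIGF2BP3 it had 12, 11 and 12 reads at 0 h, with intervals that overlap that of siControl. At 3 h it had 14 reads in siIGF2BP1, 9 and 5 in the libraries (0.164 CPM, 0.0895 to 0.275), an interval above that of siControl, whose libraries had 0 and 1 reads. siIGF2BP2 had 3 reads at 3 h (0.0237 CPM, 0.0049 to 0.0694) and siIGF2BP3 had 8, with 8 and 0 in the libraries (0.08 CPM, 0.0345 to 0.158). A count of 0, as for CXCL2 in siIGF2BP3 at 6 h, has an exact interval up to 0.053 CPM, and the floor of 3 reads is 0.0431 CPM there. These intervals cover counting error only. CXCL1 and CXCL2 are near-identical paralogs of CXCL3, and how reads that fit several of them were counted is not given in the sources used here. Since they did not pass the filter, differences between conditions were not tested and no half-lifetime is given.

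The 3 comparisons of a knockdown with siControl at 0 h ask whether losing an IGF2BP protein changes the standing level of these mRNAs. They share the 2 siControl libraries. In siIGF2BP3, 3 of the 8 tested mRNAs were lower (4.47% of all 13136 genes were called lower) and 0 were higher (4.93%). In siIGF2BP1 and siIGF2BP2, 1 of 8 was higher in each (9.43% and 6.65% of all genes) and 0 were lower (6.5% and 5.47%). The median log2 difference of the 8 mRNAs was 0.04 in siIGF2BP1, 0.06 in siIGF2BP2 and -0.34 in siIGF2BP3, where the medians of all genes tested were 0.01, 0.02 and 0.

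TNFAIP3 changed most clearly. Its 2 siControl libraries had 68.8 and 67.3 CPM, those of siIGF2BP1 had 72.4 and 71.4, those of siIGF2BP2 had 68.6 and 72.1, and those of siIGF2BP3 had 50 and 51.6. Only the siIGF2BP3 libraries were apart from the siControl libraries downwards, with a log2 difference of -0.42 (SE 0.0709, edgeR adjusted p = 6.24e-05). This call held under all 11 alternative settings, which gave -0.44 to -0.34 with adjusted p up to 0.0238. In siIGF2BP1 and siIGF2BP2 the log2 differences of TNFAIP3 were 0.1 (95% interval -0.04 to 0.24) and 0.05 (-0.09 to 0.2).

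RELB and NFKB2, whose products form the dimer of the non-canonical pathway, were also lower in siIGF2BP3. RELB had 5.16 and 6.57 CPM in siControl and 3.71 and 3.83 in siIGF2BP3, a log2 difference of -0.64 (SE 0.192, edgeR adjusted p = 0.0268). NFKB2 had 25.5 and 26.1 CPM in siControl and 22.3 and 20.3 in siIGF2BP3, a log2 difference of -0.27 (SE 0.083, adjusted p = 0.0293). Neither gene overlapped between these groups, but both calls rested on few libraries. With scaling to ERCC reads the differences were -0.55 for RELB (adjusted p = 0.127) and -0.19 for NFKB2 (adjusted p = 0.397). Without siControl replicate 2, RELB differed by -0.45 (adjusted p = 0.332), without siIGF2BP3 replicate 1 by -0.61 (0.166) and without replicate 2 by -0.66 (0.121). Without siControl replicate 1, NFKB2 differed by -0.28 (adjusted p = 0.121), without replicate 2 by -0.26 (0.153) and without siIGF2BP3 replicate 2 by -0.21 (0.308).

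BIRC3 and CXCL8 had the lowest means in siIGF2BP3 without passing the test. BIRC3 had 2.83 and 2.65 CPM in siControl, 1.95 and 2.61 in siIGF2BP1, 1.82 and 1.98 in siIGF2BP2, and 1.55 and 1.52 in siIGF2BP3. Its log2 difference in siIGF2BP3 was -0.83 (95% interval -1.41 to -0.24, edgeR adjusted p = 0.0677). It passed the threshold when only the 4 libraries compared were fitted (-0.83, adjusted p = 0.0136). CXCL8 had 1.71 and 2.41 CPM in siControl and 1.27 and 1.39 in siIGF2BP3, a log2 difference of -0.64 (-1.28 to 0.01, adjusted p = 0.252). Each of these values stood on 55 to 197 reads per library, and the intervals are correspondingly wide.

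BCL3 was higher in siIGF2BP1, with 17.7 and 14.1 CPM against 12.4 and 12.1 in siControl (log2 difference 0.41, SE 0.129, edgeR adjusted p = 0.0254). In siIGF2BP2 it had 17.1 and 14.4 CPM, a log2 difference of 0.37 (SE 0.129, adjusted p = 0.053), and in siIGF2BP3 it had 12.1 and 11 CPM, a difference of -0.08 (95% interval -0.35 to 0.19). The libraries of siIGF2BP1 and siIGF2BP2 were all above those of siControl. The siIGF2BP1 call was lost with ERCC scaling (0.37, adjusted p = 0.131), without siControl replicate 1 (0.43, 0.103) or 2 (0.38, 0.153) and without siIGF2BP1 replicate 1 (0.23, 0.441). The siIGF2BP2 difference passed the threshold with ERCC scaling (0.45, adjusted p = 0.0377), with only the 4 libraries compared (0.36, 0.00267) and without siIGF2BP2 replicate 2 (0.49, 0.0483).

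NFKB1 was higher in siIGF2BP2, with 85.5 and 81.4 CPM against 76.4 and 70.9 in siControl, a log2 difference of 0.19 (SE 0.0504, edgeR adjusted p = 0.00885). The 2 siIGF2BP1 libraries, at 71.9 and 73.3 CPM, fell within the siControl range, and those of siIGF2BP3, at 80.8 and 79.2 CPM, lay between (log2 difference 0.12, 95% interval 0.02 to 0.23, adjusted p = 0.136). The siIGF2BP2 call was lost with ERCC scaling (0.26, adjusted p = 0.0544), without siControl replicate 2 (0.13, 0.228) and without siIGF2BP2 replicate 1 (0.16, 0.16). NFKBIA had 110 and 113 CPM in siControl, 120 and 121 in siIGF2BP1, 118 and 118 in siIGF2BP2, and 111 and 103 in siIGF2BP3. Its log2 differences from siControl were 0.12 (0 to 0.25), 0.08 (-0.04 to 0.21) and -0.05 (-0.18 to 0.07), none past the threshold, and the siIGF2BP1 difference passed it with only the 4 libraries compared (0.11, adjusted p = 0.0241).

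Set directly against each other, the knockdowns differed in TNFAIP3, BCL3, RELB and NFKB1. TNFAIP3 was higher in siIGF2BP1 than in siIGF2BP3 by 0.52 on the log2 scale (SE 0.0714, edgeR adjusted p = 1.27e-06) and higher in siIGF2BP2 than in siIGF2BP3 by 0.47 (SE 0.0712, adjusted p = 6.29e-06). BCL3 was higher in the same 2 comparisons by 0.49 (SE 0.132, adjusted p = 0.00869) and 0.45 (SE 0.131, adjusted p = 0.0214). RELB was higher in siIGF2BP1 than in siIGF2BP3 by 0.73 (SE 0.194, adjusted p = 0.00743), and its difference between siIGF2BP2 and siIGF2BP3 was 0.45 (95% interval 0.05 to 0.84, adjusted p = 0.168). NFKB1 was lower in siIGF2BP1 than in siIGF2BP2 by -0.19 (SE 0.0509, adjusted p = 0.00582). NFKBIA stood just outside the threshold in siIGF2BP1 against siIGF2BP3 (0.18, 95% interval 0.05 to 0.3, edgeR adjusted p = 0.0518). It passed under 4 of 11 alternative settings. In all, 3 of 8 mRNAs were higher in siIGF2BP1 than in siIGF2BP3 (8.31% of all genes), 2 of 8 in siIGF2BP2 than in siIGF2BP3 (4.91%), and 1 of 8 was lower in siIGF2BP1 than in siIGF2BP2 (9.04%). In these 3 comparisons 0 of 8 moved the other way (6%, 4.28% and 9.65% of all genes in the same order), and 14.3%, 9.19% and 18.7% of all genes differed in either direction. The calls of BCL3, RELB and NFKB1 were each lost without 1 of the libraries, where the differences ran down to 0.32 for BCL3 (without siIGF2BP1 replicate 1 or siIGF2BP2 replicate 1), 0.69 for RELB (without siIGF2BP1 replicate 2) and -0.16 for NFKB1 (without siIGF2BP2 replicate 1).

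**Figure D2:**
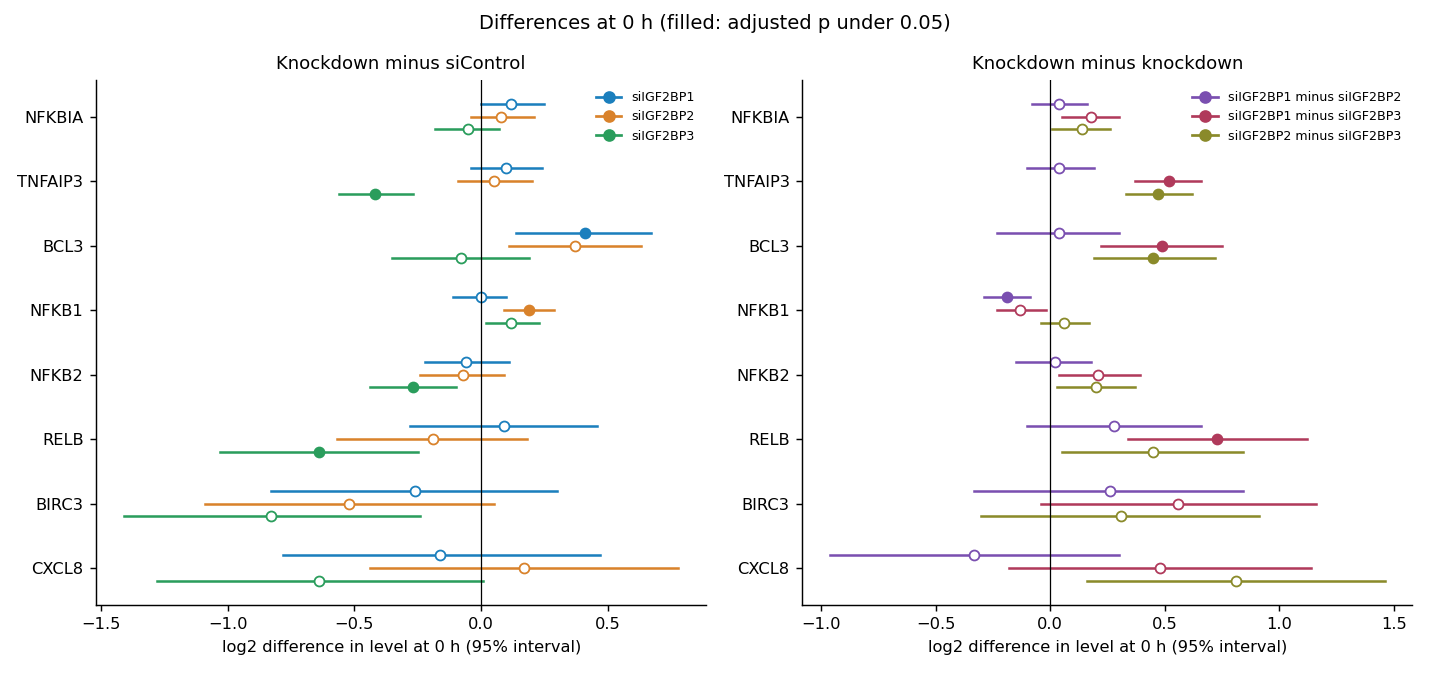
Log2 difference in level at 0 h with its 95% interval for the 8 tested mRNAs, knockdown minus siControl (left) and knockdown minus knockdown (right), filled where the edgeR adjusted p was under 0.05. In siIGF2BP3, TNFAIP3, NFKB2 and RELB lie to the left of 0, and the TNFAIP3 points against siIGF2BP3 (0.52 and 0.47) are the ones farthest from 0 relative to their intervals.

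After transcription was blocked, all 8 tested mRNAs fell over 6 h in each of the 4 conditions, where 80.3% of all genes fell in siControl and 69.1%, 71.3% and 67.2% in siIGF2BP1, siIGF2BP2 and siIGF2BP3. Levels in the time course were scaled to the ERCC spike-in reads, because a fixed amount of spike-in was added per µg of total RNA. The scaled levels are therefore relative to total RNA and not per cell. The median log2 change per 6 h of the 8 mRNAs was -1.99 in siControl, against -0.88 for all genes. With TMM scaling, which centres the genes on each other, the median of all genes was -0.02 and 48.4% of the called genes rose, against 0.312% with ERCC scaling. CXCL8 in siControl, siIGF2BP1 and siIGF2BP3 and BIRC3 in siIGF2BP2 and siIGF2BP3 then did not pass, and the other mRNAs still fell. The fitted changes in siControl ran from -7 for NFKBIA (SE 1.03, edgeR adjusted p = 2.2e-06) to -1.28 for NFKB1 (SE 0.0911, adjusted p = 2.65e-11). CXCL8 in siIGF2BP1 was the member whose call rested on 1 library: it fell by 1.23 on the log2 scale (adjusted p = 0.0143), and without siIGF2BP1 replicate 2 of 0 h its change was -0.94 (adjusted p = 0.101).

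NFKBIA was nearly gone within 3 h. Its 2 siControl libraries kept 2.31% and 2.03% of the 0 h mean at 3 h and 1.18% and 1.02% at 6 h. In the 3 knockdowns the libraries ranged from 1.85% to 3.1% at 3 h and from 0.954% to 1.94% at 6 h. The half-lifetime (the natural log of 2 over the mean of the decay rates from 0 to 3 h and from 0 to 6 h) was 0.683 h in siControl, with a range of 0.663 to 0.704 h over the 8 ways of taking 1 library per time point, which share libraries and are no independent repeats. Of the 11039 genes with a half-lifetime in siControl, 0.0815% had a shorter one. In siIGF2BP1, siIGF2BP2 and siIGF2BP3 it was 0.727, 0.677 and 0.71 h, and the range overlapped that of siControl except in siIGF2BP1 (0.706 to 0.747 h). How many of all genes have ranges apart in this way was not counted, here or for the mRNAs below.

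TNFAIP3, the other direct brake on the pathway, came next. It kept 15.8% and 15.2% at 3 h and 13.0% and 10.3% at 6 h in siControl, and its half-lifetime was 1.42 h (1.33 to 1.52 h). The knockdowns siIGF2BP1, siIGF2BP2 and siIGF2BP3 gave 1.47, 1.4 and 1.54 h. BCL3 kept 25.4% and 23.9% at 3 h and 16.5% and 11.5% at 6 h in siControl. Its half-lifetime was 1.74 h (1.58 to 1.94 h) there and 1.88, 1.96 and 2.14 h in siIGF2BP1, siIGF2BP2 and siIGF2BP3. The siIGF2BP3 range (2.04 to 2.25 h) did not overlap that of siControl, but the slope test given below did not call BCL3. CXCL8 kept 22.3% and 43.9% at 3 h and 26.6% and 34.5% at 6 h in siControl, with a half-lifetime of 2.45 h (1.8 to 3.5 h).

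RELB, BIRC3, NFKB2 and NFKB1 had the longest half-lifetimes of the 8 mRNAs in siControl. RELB kept 37.5% and 51.2% at 3 h and 24.7% and 18.4% at 6 h in siControl, a half-lifetime of 2.63 h (2.18 to 3.23 h). BIRC3 kept 57% and 44%, then 37.7% and 26.5%, a half-lifetime of 3.33 h (2.56 to 4.65 h). NFKB2 kept 62.1% and 65.5%, then 45% and 35%, a half-lifetime of 4.58 h (3.83 to 5.65 h). NFKB1 was the most stable, with 65.9% and 61.9% at 3 h, 44.4% and 37.9% at 6 h and a half-lifetime of 4.66 h (3.74 to 6.31 h). Even these stood below the median of all genes in siControl, 6.22 h, with 39.1% of genes shorter-lived than NFKB1. Neighbours in this order from BCL3 onwards overlapped in range, whereas NFKBIA, TNFAIP3 and BCL3 did not overlap with one another. The order was not that of the ATTTA copies per kilobase given above. BCL3 and RELB, with none, lay among the shorter-lived, and NFKB2, whose 6.76 per kilobase is 1 copy in 148 bases, among the longer-lived. A link between ATTTA and half-lifetime was not tested.

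**Figure D3:**
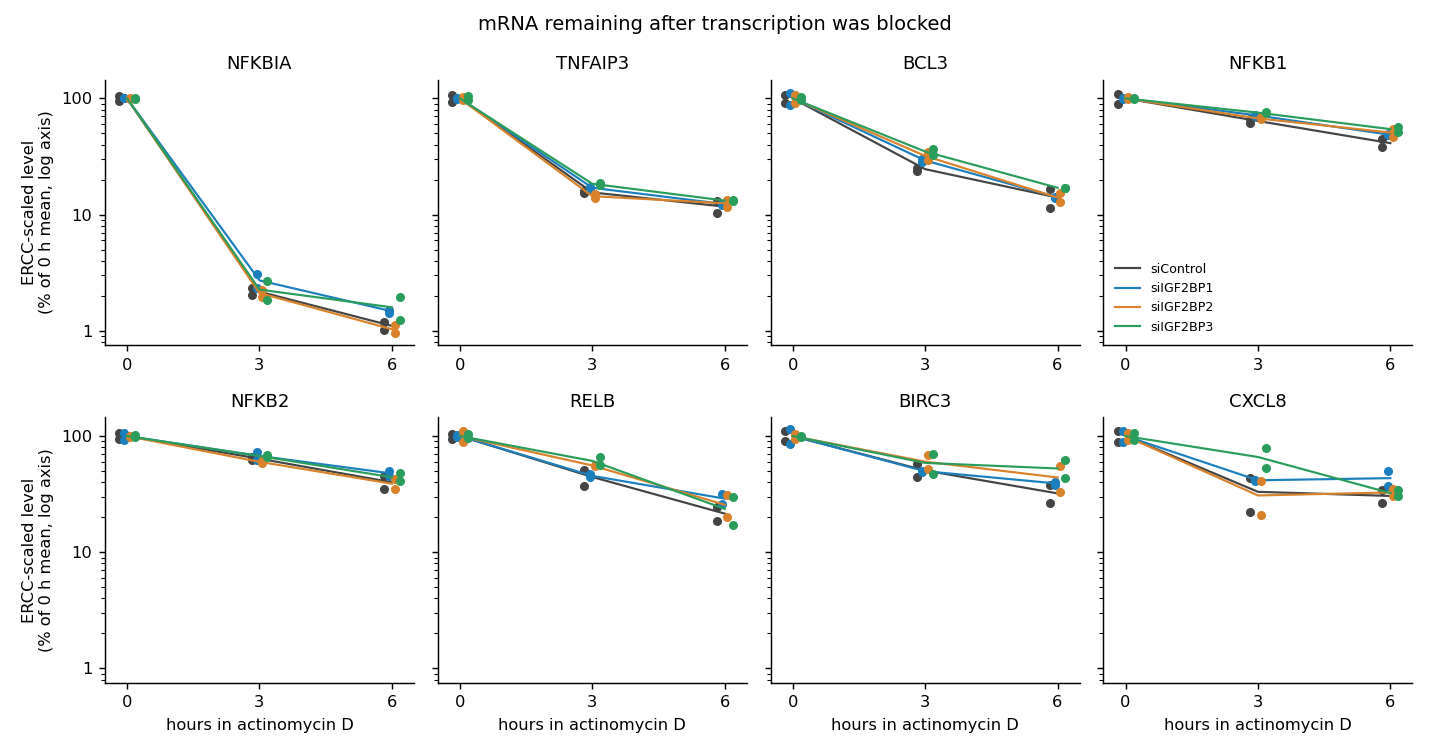
ERCC-scaled level of the 8 tested mRNAs in percent of the 0 h mean (log axis) against hours in actinomycin D, with 1 point per library (shifted sideways by condition for legibility) and lines through the means of 2 libraries. NFKBIA drops to between 1.85% and 3.1% by 3 h in every library, and NFKB1 and NFKB2 fall along nearly straight lines.

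Much of the loss of the most unstable mRNAs took place in the first 3 h. In siControl the log2 change from 0 to 3 h was -5.53 for NFKBIA (SE 0.125), -2.69 for TNFAIP3 (SE 0.108), -2.02 for BCL3 (SE 0.162) and -1.57 for CXCL8 (SE 0.346). From 3 to 6 h the changes were -0.97 (SE 0.163), -0.41 (SE 0.111), -0.81 (SE 0.179) and -0.14 (SE 0.37) in the same order. All 8 tested mRNAs fell in the first interval (61.3% of all genes) and 6 of 8 in the second (64.9%), where CXCL8 (edgeR adjusted p = 0.737) and BIRC3 (-0.64, adjusted p = 0.0676) did not pass. Without siControl replicate 2 of 6 h, the second change of TNFAIP3 was -0.26 (adjusted p = 0.0942), and without replicate 1 that of BIRC3 was -0.92 (0.0362). Without siControl replicate 2 of 3 h, the first change of BIRC3 was -0.8 (adjusted p = 0.0657).

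In siIGF2BP1 and siIGF2BP2 all 8 fell in the first interval too (55.4% and 67.2% of all genes) and 6 and 5 in the second (45.9% and 36.9%). In siIGF2BP3, 6 fell in the first interval (56%), BIRC3 (-0.73, edgeR adjusted p = 0.0504) and CXCL8 (-0.63, 0.12) not passing, and 7 in the second (41.6%). There CXCL8 fell by 0.99 on the log2 scale from 3 to 6 h (edgeR adjusted p = 0.0399), but that call did not hold without replicate 2 of 3 h (-0.72, 0.261) or without replicate 1 (-0.91, 0.145) or 2 (-1.07, 0.107) of 6 h. In the same interval and condition the fall of NFKBIA (-0.44, adjusted p = 0.0297) did not hold without replicate 2 of 3 h (-0.2, 0.49) or of 6 h (-0.16, 0.627). RELB from 3 to 6 h in siIGF2BP1 and BIRC3 from 0 to 3 h in siIGF2BP1 and siIGF2BP2 also lost the call without 1 library.

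A test of the first change minus the second, added after the data had been seen, asked whether the fall was steeper early than late. In siControl it was steeper early for 3 of 8 mRNAs (10.9% of all genes): NFKBIA by -4.56 (SE 0.257, edgeR adjusted p = 5.45e-67), TNFAIP3 by -2.28 (SE 0.194, adjusted p = 4.12e-29) and BCL3 by -1.21 (SE 0.301, adjusted p = 0.000906). NFKBIA and TNFAIP3 passed in siIGF2BP1, siIGF2BP2 and siIGF2BP3 too, where 10.8%, 17.8% and 11.3% of all genes did. Their differences there ran from -5.09 to -4.33 for NFKBIA and from -2.59 to -1.96 for TNFAIP3. BCL3 in siControl was lost without replicate 2 of 3 h (-1.12, adjusted p = 0.0623), and in siIGF2BP1, where it was -0.73 (0.0954), it passed without replicate 2 of 0 h (-0.88, 0.0484). CXCL8 passed in siIGF2BP2 (-1.8, SE 0.609, adjusted p = 0.021), but not without replicate 1 of 0 h (-1.7, 0.0639) or replicate 2 of 3 h (-0.98, 0.491), nor with TMM scaling (-1.52, 0.0553). For NFKB1 and NFKB2 the difference in siControl was -0.01 (95% interval -0.32 to 0.3) and 0.03 (-0.36 to 0.41). The residual level of NFKBIA at 6 h stood on 56 to 112 reads per library.

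The knockdowns were then compared with siControl in the change per 6 h, the question of whether losing an IGF2BP protein alters the decay. 0 of the 8 tested mRNAs passed in siIGF2BP1, siIGF2BP2 or siIGF2BP3 by edgeR, and 0 passed with DESeq2. At an unadjusted p under 0.05, 0, 1 and 1 of them would be counted, NFKB1 each time. Over all genes the same test called 0.0152%, 0% and 0.0228%, so it called almost nothing anywhere. The median differences of the 8 mRNAs were 0.26, 0.08 and 0.24 per 6 h on the log2 scale, and those of all genes were 0.19, 0.17 and 0.22. With TMM scaling the medians of all genes were -0.01, -0.02 and -0.01, and with scaling to total gene reads 0.01, 0.02 and 0.02. NFKB1 in siIGF2BP3 came nearest, with a change of -0.88 per 6 h against -1.28 in siControl, a difference of 0.4 (95% interval 0.14 to 0.67, edgeR adjusted p = 0.277). It passed only without siControl replicate 2 of 0 h (0.53, adjusted p = 0.0436), and over all alternatives it ran from 0.18 to 0.53.

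The intervals say what the design could have shown. For NFKB2 they were -0.11 to 0.6 in siIGF2BP1, -0.39 to 0.31 in siIGF2BP2 and -0.21 to 0.5 in siIGF2BP3. For NFKBIA they were as wide as -2.92 to 3.51 in siIGF2BP3, since a straight line on the log scale described its course poorly. The changes of NFKBIA from 0 to 3 h, each with its own error, were -5.53 (SE 0.125) in siControl, -5.21 (SE 0.122) in siIGF2BP1, -5.56 (SE 0.121) in siIGF2BP2 and -5.52 (SE 0.126) in siIGF2BP3, and the differences between these were not tested. CXCL8 from 0 to 3 h changed by -1.57 (SE 0.346), -1.25 (SE 0.353), -1.71 (SE 0.333) and -0.63 (SE 0.356) in the same order. Its siIGF2BP3 libraries kept 53.1% and 78.8% at 3 h, above all other libraries at that time, and 30.6% and 34.0% at 6 h.

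**Figure D4:**
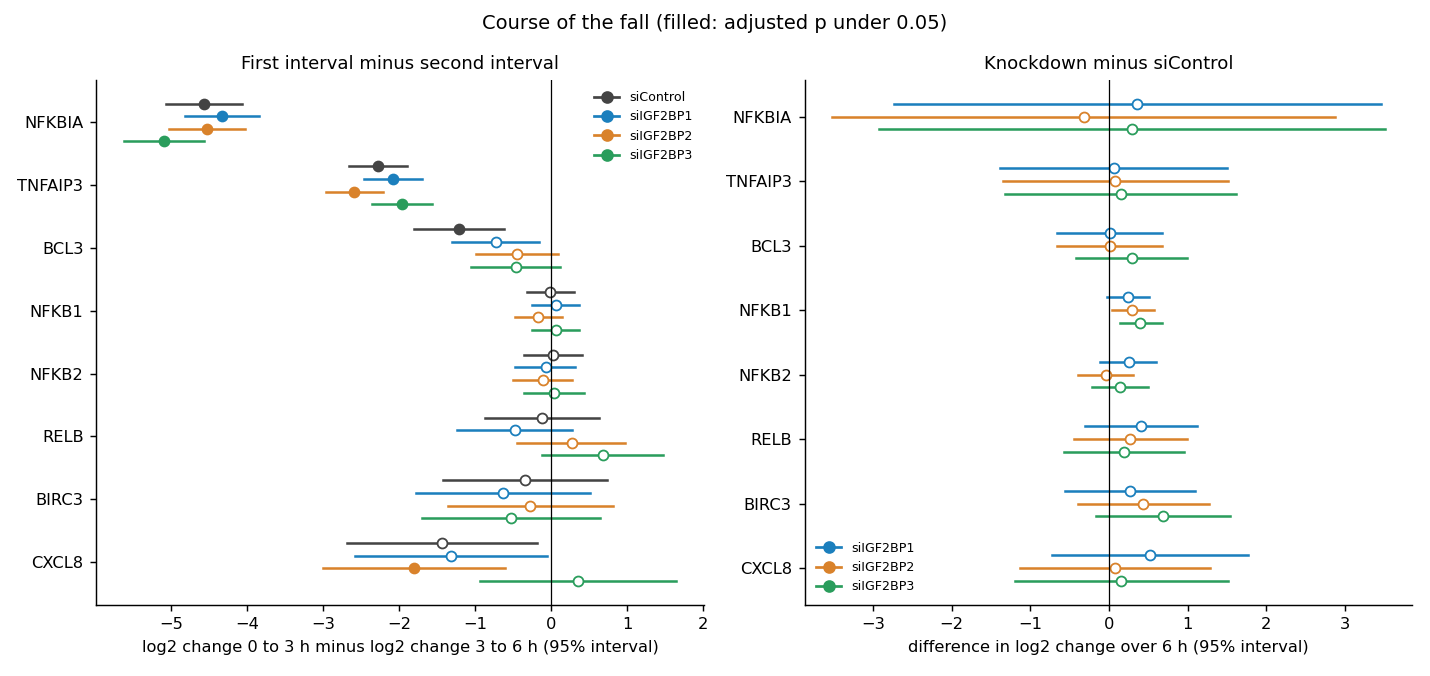
Left, log2 change from 0 to 3 h minus that from 3 to 6 h in each condition. Right, knockdown minus siControl in the log2 change over 6 h. Lines are 95% intervals and filled points have an edgeR adjusted p under 0.05. NFKBIA and TNFAIP3 are filled in all 4 conditions on the left, and no point is filled on the right.

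As plain values with ERCC scaling, half-lifetimes in the knockdowns were mostly longer, among these mRNAs and among all genes. In siIGF2BP2, those of NFKBIA, TNFAIP3, NFKB2 and CXCL8 were shorter than in siControl. Over all genes the median was 6.22 h with siControl, and it stood at 6.91, 6.51 and 6.98 h for siIGF2BP1, siIGF2BP2 and siIGF2BP3. Genes without a half-lifetime, left out of these medians, numbered 1140, 1830, 1168 and 1954 in the same order. The shift over all genes depended on the ERCC scaling, since the median slope differences given above were at most 0.02 without it. NFKB1 had 4.66, 5.94, 5.66 and 7.09 h in siControl, siIGF2BP1, siIGF2BP2 and siIGF2BP3. Its siIGF2BP3 range (6.5 to 7.79 h) lay above that of siControl (3.74 to 6.31 h), without a call in the slope test and without a count of such genes among all. RELB had 2.63, 2.95, 3.29 and 3.42 h, BIRC3 had 3.33, 3.56, 4.53 and 4.87 h, and CXCL8 had 2.45, 3.21, 2.39 and 4.24 h, all with overlapping ranges. NFKB2, with 4.58, 5.43, 4.23 and 5.17 h, showed no order by condition.

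**Figure D5:**
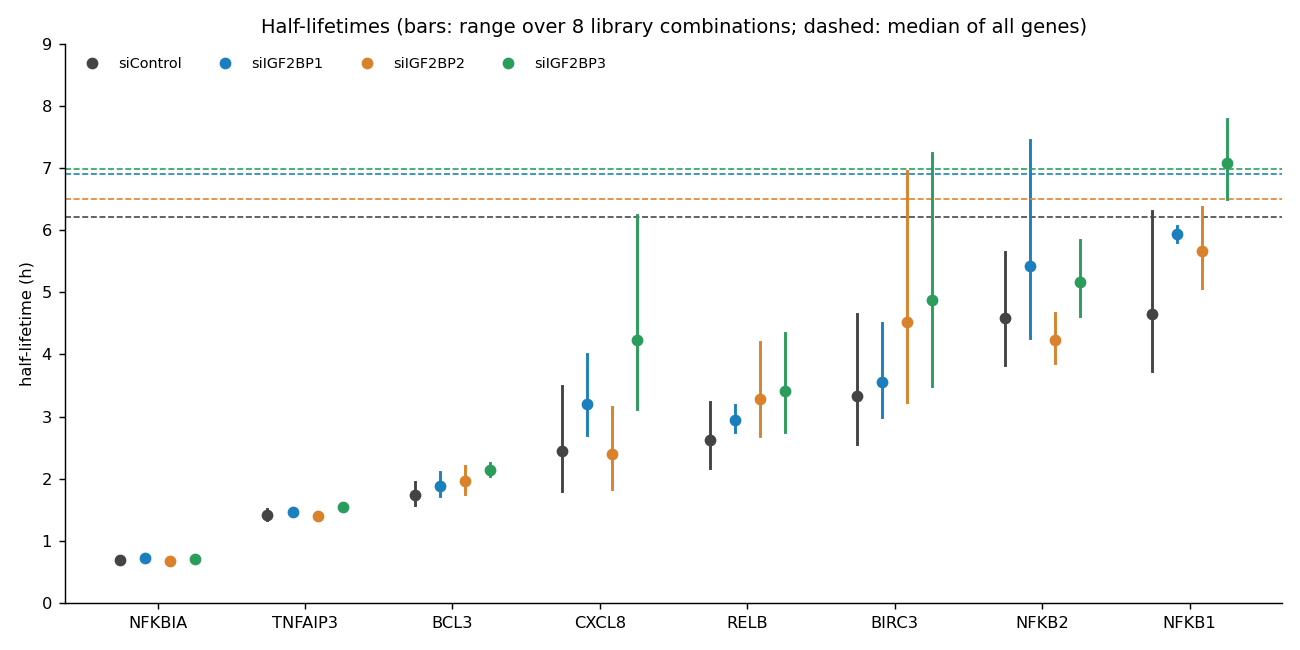
Half-lifetime in hours of the 8 tested mRNAs in the 4 conditions, with bars for the lowest and highest value over the 8 combinations of 1 library per time point and dashed lines at the median of all genes in each condition. NFKBIA lies near 0.7 h throughout, and NFKB1 in siIGF2BP3 (7.09 h) is the only point above its own dashed line.

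Of a list of 45 further genes of the pathway (receptors and adaptors, kinases, subunits, inhibitors, ligands and other targets), 34 were tested. In siControl 31 of the 34 fell over 6 h, where 80.3% of all genes did, including 11 of 12 receptors and adaptors, 3 of 3 kinases, 2 of 2 subunits (RELA and REL), 7 of 8 inhibitors and 8 of 9 other targets. The ligands TNF, IL1B and LTB did not pass the filter. IER3, an early-response survival gene, had a half-lifetime of 0.663 h (0.649 to 0.679 h), next to NFKBIA. With a mean of 3.53 CPM, and 1.55% left at 3 h and 1.47% at 6 h, its late levels stood on few reads. TRAF6, a signalling ubiquitin ligase (1.05 h), and NFKBIE, another IkB (1.25 h), followed. Then came IRF1, a transcription factor of the interferon response (1.38 h), and TNFRSF1A, the main TNF receptor (1.41 h). Among the genes with a half-lifetime in siControl, the longest were SDC4, a cell surface proteoglycan (16.7 h, 9.44 to 83 h), CHUK, a catalytic IkB kinase (16.3 h, 12 to 26 h), and CCL20, a lymphocyte-attracting chemokine (14.2 h, 8.83 to 39.2 h). IRAK1, a receptor-associated kinase, and NFKBIB, another IkB, had none because their mean decay rate was not above 0, with 114% and 105% of the 0 h mean at 3 h and 105% and 94.5% at 6 h. The half-lifetime ranges of the chemokine mRNAs CXCL8 (1.8 to 3.5 h) and CCL20 did not overlap in siControl, and the difference was not tested. CXCL8 kept 33.1% of the 0 h mean at 3 h and 30.5% at 6 h. CCL20 did not fall significantly (log2 change -0.2 per 6 h, edgeR adjusted p = 0.227).

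At 0 h, 5 of the 34 changed in each knockdown (15.9%, 12.1% and 9.39% of all genes in siIGF2BP1, siIGF2BP2 and siIGF2BP3). In siIGF2BP1, TAB2, a kinase adaptor, and SDC4 were higher (0.25 each on the log2 scale, edgeR adjusted p = 0.000257 and 0.000283), and TNIP1, a partner of the TNFAIP3 protein (-0.62, adjusted p = 4.2e-13), CCL20 (-0.32, 0.00145) and MAP3K7 (-0.14, 0.0166) were lower. In siIGF2BP2, CHUK (0.19, adjusted p = 0.0231) and IL1R1 (0.16, 0.015) were higher, and ICAM1, an adhesion molecule (-0.44, 9.7e-08), OTULIN (-0.2, 0.0349) and SDC4 (-0.18, 0.0117) were lower. In siIGF2BP3, TAB2 was higher (0.17, adjusted p = 0.0193), and ICAM1 (-0.6, 3.08e-10), SDC4 (-0.37, 1.62e-06), CCL20 (-0.29, 0.00714) and IL1R1 (-0.15, 0.0327) were lower. In siIGF2BP3, then, ICAM1, SDC4 and CCL20, like TNFAIP3, RELB and NFKB2, were called lower than siControl. RELB and NFKB2 were not called with ERCC scaling. Of the 9 tested other targets 6 were not called, nor were the 8 inhibitors. Among the 8 tested mRNAs of the first list 5 were not called, NFKBIA, NFKB1 and BCL3 among them. The medians were -0.06 for the 34 genes and 0 for all genes. Neither list was chosen without knowledge of earlier results, and no test was made of the lists as such.

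The genes whose ERCC-scaled level ran most like that of NFKBIA over the 12 group means were AXIN2 (Pearson's r = 0.9989), MIDEAS (0.9989) and EPC1 (0.9984), among 9745 genes with a mean of at least 5 CPM. The 12 points share 4 time courses, so the likeness is mostly that of a steep early fall. In siControl, AXIN2 still held 14.5% at 3 h and 10.4% at 6 h, where NFKBIA held 2.17% and 1.1%.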

How the data were processed

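RNA with ERCC spike-in from HepG2 was sequenced as stranded single-end libraries. Per the labels and the methods, the authors trimmed reads with Trimmomatic (version 0.39), aligned them to hg38 with HISAT2 (version 2.1.0) and counted them per gene with HTSeq on GENCODE; the handling of multi-mapping reads is not given in the sources used here. The deposited values are raw counts, 1 table per library. Summary rows that name no gene (13.551% to 17.064% of reads) and 45 pseudoautosomal Y copies were left out.

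From there, edgeR (version 4.0.16, R version 4.3.3) quasi-likelihood tests were run on 13136 genes with at least 1 CPM in at least 2 of 24 libraries, with Benjamini-Hochberg adjustment over all of them and a threshold of 0.05. Levels at 0 h used 12 group means and TMM scaling. Changes over 6 h used an intercept and slope per condition, and changes between time points used group means, both scaled to total ERCC reads, which replaces the conversion to spike-in concentration described by the authors. Half-lifetimes follow the decay equation of the methods, for 12179 genes with a mean of at least 1 CPM, where the decay rate was above 0. Alternatives covered scaling, DESeq2 (version 1.42.0), filters, the replicate block, the samples fitted and each library left out. The fits were tested on simulated counts. Symbols, UTRs and coordinates come from GENCODE 44 (hg38) and promoters from RefSeq (GRCh38.p14). 58207 gene IDs matched a symbol and 469 did not, among them that of SOD2, so 44 of 45 listed pathway genes matched.

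The mRNAs and lists were chosen with earlier results of these data known. All 10 mRNAs are named; of the pathway list, at most 4 genes in each direction per comparison (largest change, adjusted p under 0.05), the 5 shortest and 3 longest half-lifetimes in siControl, and the 3 genes most like NFKBIA. On the other strand, exons of TNFAIP3 overlap WAKMAR2 (1.5% of exon bases) and those of BIRC3 an unnamed long non-coding RNA (1.7%), and BCL3 shares 2.1% with MIR8085 on its own strand. No 2 libraries of a group looked like copies of a single library, and their counts gave a chi-square of 3.24 to 8.49 per degree of freedom. Whether equal replicate numbers mark shared material was checked from deviations from group means: over 66 pairs of groups the correlation was -0.04 to 0.22, with 5 above 0.1. A split plate would link only the 12 pairs within a condition, which ran from -0.01 to 0.16, with 3 above 0.1. The numbers were not treated as pairs in the main fits, and a replicate block was fitted as an alternative.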

Additional observations from a re-analysis of the deposited data

Results flagged for a closer look

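The direct tests between knockdowns at 0 h showed 6 differences among the 8 tested mRNAs in which the effects of 2 siRNAs were unlike each other, and these are the results set apart here. TNFAIP3 was 0.52 higher on the log2 scale in siIGF2BP1 than in siIGF2BP3 and 0.47 higher in siIGF2BP2 than in siIGF2BP3, and over 11 alternatives each these values ran from 0.4 to 0.54 and from 0.43 to 0.51, past the edgeR threshold every time. BCL3 was 0.49 and 0.45 higher in the same comparisons. It lost the call with ERCC scaling (0.38 and 0.45), in the first also without siIGF2BP1 replicate 1 (0.32) or siIGF2BP3 replicate 2 (0.42), and in the second also without siIGF2BP2 replicate 1 (0.32) or either siIGF2BP3 library (0.52 and 0.39). RELB was 0.73 higher in siIGF2BP1 than in siIGF2BP3, and without siIGF2BP1 replicate 2 (0.69, adjusted p = 0.0601) or siIGF2BP3 replicate 1 (0.7, adjusted p = 0.0746) it did not pass. NFKB1 differed by -0.19 between siIGF2BP1 and siIGF2BP2, and did not pass without siIGF2BP1 replicate 1 (-0.17, adjusted p = 0.094) or siIGF2BP2 replicate 1 (-0.16, adjusted p = 0.109). With 2 libraries per group, no single library could be tested as standing apart from its group.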

How the results depend on the processing

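With scaling to ERCC reads at 0 h, the number of tested mRNAs that differed went from 1 to 0 in siIGF2BP1 against siControl, from 3 to 1 (TNFAIP3) in siIGF2BP3 against siControl and from 2 to 1 in siIGF2BP2 against siIGF2BP3, while the genes called overall went from 2093 to 649, from 1234 to 471 and from 1207 to 382. Over all genes the calls also went from 1593 to 732 in siIGF2BP2 against siControl, from 2455 to 1585 in siIGF2BP1 against siIGF2BP2 and from 1879 to 875 against siIGF2BP3. The share of called genes that were higher moved from 59.2% to 39%, from 54.9% to 76.9% and from 52.4% to 82.4% in siIGF2BP1, siIGF2BP2 and siIGF2BP3 against siControl, and from 51.6% to 15% and from 58.1% to 11.2% in siIGF2BP1 against siIGF2BP2 and siIGF2BP3. With only the 4 libraries compared, 2 differed in siIGF2BP1 and 2 in siIGF2BP2 against siControl, 5 in siIGF2BP1 and 4 in siIGF2BP2 against siIGF2BP3. The shares of all genes called in those fits are not given here, so these counts do not set the mRNAs apart from other genes. DESeq2 gave RELB in siIGF2BP3 no adjusted p. With the replicate number as a block, 2 mRNAs differed in siIGF2BP2 against siControl, BCL3 joining NFKB1 (0.36, adjusted p = 0.0287), 4 differed in siIGF2BP1 against siIGF2BP3, NFKBIA being added (0.18, adjusted p = 0.0476), and BIRC3 passed from 0 to 3 h in siIGF2BP3 (-0.74, adjusted p = 0.0463). No other call changed under the block, for which the shares of all genes are not given here either. Equal numbers correlated at -0.01 to 0.16 within conditions.

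In the time course, TMM scaling, which sets the overall fall aside, left 5 and 3 mRNAs changed from 0 to 3 h in siIGF2BP2 and siIGF2BP3 and 3 and 4 from 3 to 6 h in siIGF2BP1 and siIGF2BP3, and turned the change of TNFAIP3 from 3 to 6 h in siControl to 0.00 (adjusted p = 0.997). Of all 13136 genes, 4188 then rose and 4515 fell from 0 to 3 h in siIGF2BP2, and 4344 rose and 4342 fell in siIGF2BP3. From 3 to 6 h, 3070 rose and 3163 fell in siIGF2BP1, and 3018 rose and 3286 fell in siIGF2BP3. Of the genes TMM scaling called between time points, 46.5% to 50.3% rose, against 0.234% to 3.37% with ERCC scaling, and over 6 h 47% to 48.9% against 0.312% to 4.15%. The genes with unequal steps went from 1651 to 4163 in siControl. The median half-lifetime of the 8 mRNAs was 2.54, 3.08, 2.84 and 3.83 h in siControl, siIGF2BP1, siIGF2BP2 and siIGF2BP3. TMM scaling gave 4.03, 4.88, 4.72 and 7.11 h. The levels at 0 and 6 h alone, or a straight line through 3 evenly spaced times, gave 3.11, 3.88, 3.38 and 3.28 h, so that siIGF2BP3 was then no longer the longest. Without 1 library these medians ran over 2.18 to 2.92, 2.88 to 3.37, 2.6 to 3.17 and 3.54 to 4.19 h.

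Without 1 library, the number of mRNAs that differed at 0 h from siControl ran over 0 to 1 in siIGF2BP1, 0 to 2 in siIGF2BP2 and 1 to 2 in siIGF2BP3. Between knockdowns it ran over 0 to 1 for siIGF2BP1 against siIGF2BP2, 2 to 2 against siIGF2BP3 and 1 to 2 for siIGF2BP2 against siIGF2BP3. 7 to 8 fell over 6 h in siIGF2BP1 and 8 in the others, 0 to 1 had a slope difference in siIGF2BP3 and 0 elsewhere, and 2 to 3 had unequal steps. From 0 to 3 h 6 to 8 changed and from 3 to 6 h 5 to 7. With 2 libraries per group and 1 left out, the lone library was assumed to vary like the other groups. The shares of all genes called in these fits are not given here. Of the alternatives that kept every library, 296 of 314 single values at 0 h and 182 of 182 slope differences kept their side of the threshold. The cause of these shifts was not tested.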

Other observations

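Among the 34 tested pathway genes, the knockdowns also differed from each other at 0 h, in 11 genes between siIGF2BP1 and siIGF2BP2 (18.7% of all genes), in 6 between siIGF2BP1 and siIGF2BP3 (14.3%) and in 6 between siIGF2BP2 and siIGF2BP3 (9.19%). SDC4 stood in a graded order, with 132 and 128 CPM in siIGF2BP1, 113 and 109 in siControl, 101 and 94.0 in siIGF2BP2 and 82.9 and 88.2 in siIGF2BP3, and none of these groups overlapped. It was 0.62 higher on the log2 scale in siIGF2BP1 than in siIGF2BP3 (edgeR adjusted p = 7.66e-12). ICAM1 had 81.1 and 79.8 CPM in siControl, 74.6 and 72.6 in siIGF2BP1, 57.8 and 60.5 in siIGF2BP2 and 52.7 and 53.4 in siIGF2BP3, and was 0.49 higher in siIGF2BP1 than in siIGF2BP3 (adjusted p = 2.16e-08). TNIP1 was lower in siIGF2BP1 than in siIGF2BP2 (-0.66, adjusted p = 4.49e-14), with 71.1 and 66.6 CPM against 108 and 111. LIF, a cytokine, was 0.63 higher in siIGF2BP1 than in siIGF2BP3 (adjusted p = 0.000438).

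The steep early fall was not restricted to NFKBIA, TNFAIP3 and BCL3. In siControl 10 of the 34 pathway genes fell more from 0 to 3 h than from 3 to 6 h, where 10.9% of all genes did. The largest differences were those of IER3 (-5.92, edgeR adjusted p = 3.77e-15), TRAF6 (-2.48, 1.07e-06), REL (-2.14, 4.32e-10) and MAP3K14 (-1.96, 1.68e-06). The late levels of IER3, whose mean was 3.53 CPM, stood on few reads.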
